A study of Mus musculus with 8 samples.

Results

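The comparison described here is between 2 libraries of chromatin-associated RNA taken before any TNF was given: primary mouse embryonic fibroblasts of genotype crel-/-rela-/- (KO), which lack the NF-κB subunits cRel and RelA, and wild-type fibroblasts (WT). The strain is given as C57BL/6 and the stage as embryo for both, and both cultures had been held overnight in medium with 0.5% bovine calf serum, so the cells of both genotypes were serum-starved. The 2 libraries are the start of a time course of 8, in which each genotype was also sampled after 15, 45 and 60 min of TNF at 10 ng/ml, with 1 library per genotype and time. A gene was included when the higher of the 2 libraries at 0 min held 20 or more counts, and genes on X and Y were set aside. This left 12973 genes of 45706 in the table, and 413 genes of the sex chromosomes (406 on X and 7 on Y) were set aside.

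NF-κB is a family of dimeric transcription factors that IκB proteins hold in the cytoplasm of resting cells. TNF triggers the breakdown of IκB and the dimers enter the nucleus. RelA and cRel, each of which carries a transactivation domain, switch on genes for chemokines, cytokines, adhesion molecules and the pathway's own inhibitors. A small part of the dimers reaches the nucleus of unstimulated fibroblasts too, and it has been tied to the tonic level of some immune genes. Chromatin-associated RNA is rich in transcripts still being made, so its level follows transcription more closely than that of RNA from whole cells.

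With 1 library a side there is no replicate check and no p-value at 0 min. Each gene is given as the KO over WT ratio of counts scaled by library size and TMM (trimmed mean of M-values) factors, with an exact Clopper-Pearson 95% interval that covers counting error only. A gene counted as called when the ratio was at least 2-fold and the interval excluded 1, and a library with 0 counts was set to a floor of 3 counts per library, so that such a fold is a lower bound. The same ratio at 15 min, from 2 other libraries, separated genes called in the same direction at both times from genes whose 15 min interval held 1 or whose direction turned round, which are called here 0 min alone. Genes in between had the same direction and an interval excluding 1 but were under 2-fold or under 20 counts at 15 min. The 15 min libraries had already been exposed to TNF, so they are no repeat of the 0 min comparison. Nothing in the labels says how many embryos or cultures stand behind a library, or whether the 4 libraries of a genotype come from one culture.

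The 8 libraries held between 12359817 and 15607331 counts. Between 58.92% and 70.62% of them lay in 3 gene models (Gm26917, Gm42418 and Malat1), which left 3948194 to 5644974 counts per library for all other genes. Levels summed over a list are given as CPM, the usual depth-normalized count, computed on TMM-scaled library sizes. The labelled cell type was checked against its markers: the 10 fibroblast markers summed to between 4540 and 6060 CPM in the KO libraries and between 4690 and 6560 CPM in the WT libraries, while 7 erythroid and 7 hepatocyte markers each summed to at most 0.217 CPM in every library. Leukocyte markers summed to between 82.6 and 117 CPM in the WT libraries and between 7.46 and 9.56 CPM in the KO libraries. Cartilage markers summed to between 197 and 288 CPM in WT and between 267 and 773 CPM in KO. The KO 0 min library stood apart from the other KO libraries in genes of cartilage, bone and epithelium, described further on. Xist, the RNA of the inactive X chromosome, had 16 counts in KO and 19258 in WT at 0 min. Y-linked genes were higher in KO but were counted in WT too, with 966 counts of Uty in KO and 364 in WT. The labels give no sex of the embryos, and its part in the results below was not tested.

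Of the 12973 genes, 321 were called higher in KO at 0 min (2.47%) and 492 lower (3.79%), and 12160 were not called. The median log2 ratio was 0.02, and the middle of the distribution ran from -0.53 at the 10th to 0.48 at the 90th percentile. Scaled by total counts alone, which shifted the median to -0.16, the calls were 235 higher and 698 lower. Called genes were shallower than the rest: the higher library held a median of 48 counts for genes higher in KO and 56 for genes lower in KO, against 183 for genes not called. On the 2-fold border, Tec was called with 88 counts in KO and 158 in WT, and Ryr3 with 194 in KO and 348 in WT just missed it.

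More of the lower than of the higher genes were called again at 15 min, although most genes of both directions kept their sign: 262 of the 321 higher and 459 of the 492 lower genes. Of the 492 lower genes, 284 were called lower at both times (2.19% of all measured genes), 62 were weaker at 15 min (0.478%) and 146 were seen at 0 min alone (1.13%). Of the 321 higher genes, 89 were called at both times (0.686%), 37 were weaker at 15 min (0.285%) and 195 were seen at 0 min alone (1.5%). At 15 min itself, 262 of 12295 genes were called higher in KO (2.13%) and 504 lower (4.1%). Depth limits the split: 119 of the 195 genes higher at 0 min alone had under 20 counts in both 15 min libraries, as had 54 of the 146 lower ones.

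**Figure D1:**
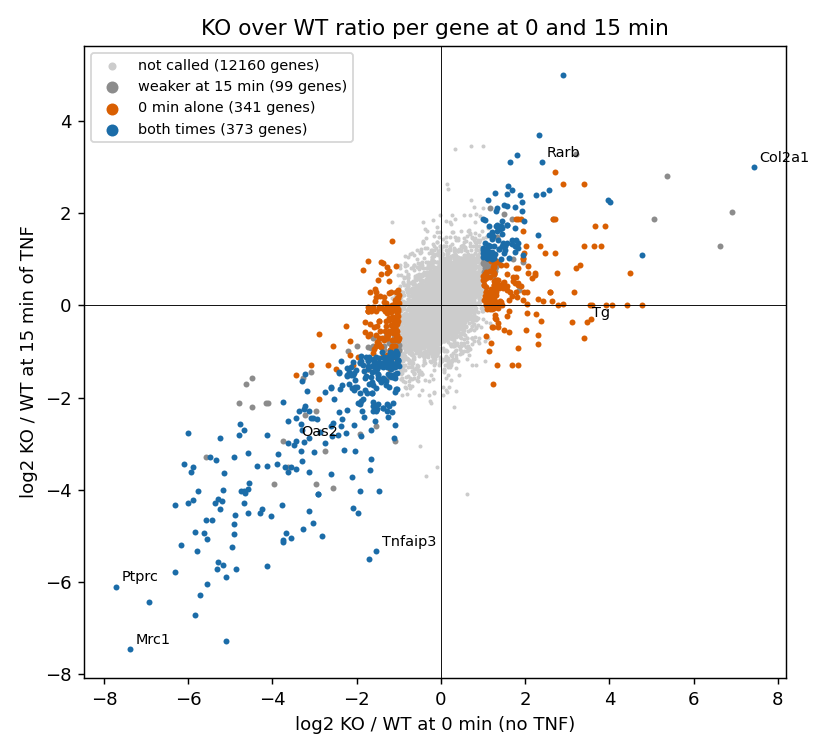
Each point is a gene, with its log2 KO over WT ratio at 0 min on the horizontal axis and at 15 min of TNF on the vertical axis, and genes with no count in both 15 min libraries are not drawn. The 373 genes called at both times (blue) run along the diagonal and reach farthest on the lower left, where Ptprc and Mrc1 lie, while the 341 genes of 0 min alone (orange) spread along the horizontal axis.

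The targeted genes come first. Rela still had 306, 241, 291 and 324 counts in KO at 0, 15, 45 and 60 min, against 324, 406, 704 and 589 in WT, and its log2 ratio at 0 min was -0.24 (-0.47 to -0.01). Rel, which encodes cRel, had 478, 308, 538 and 633 counts in KO, against 151, 173, 805 and 506 in WT. Rel was thus higher in KO before TNF, with a log2 ratio of 1.51 (1.24 to 1.78) at 0 min and 1.13 at 15 min, and its levels overlapped between the genotypes over the whole course. The labels do not say which part of either gene was removed, and whole-gene counts can hold reads from a disrupted transcript, so these counts check nothing about the alleles. The other subunit genes were not called: Relb had 195 counts in KO and 229 in WT, Nfkb1 783 in KO and 1043 in WT, and Nfkb2 297 in KO and 413 in WT at 0 min, with log2 ratios of -0.39, -0.57 and -0.63 and intervals below 0.

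Some of the pathway's own negative regulators and chemokines were lower in KO before TNF, while the medians of both lists lay near 0. Of 15 measured feedback regulators 2 were called lower (4 with scaling by total counts) and none higher, against 3.79% lower over all measured genes, with a median log2 ratio of -0.20 against 0.02 for all. The first was Tnfaip3, which encodes the ubiquitin-editing enzyme A20, with 42, 22, 51 and 29 counts in KO and 109, 1086, 5115 and 3368 in WT at the 4 times. Its log2 ratio was -1.53 (-2.08 to -1.01) at 0 min and -5.33 at 15 min, so the difference before TNF was a small part of that after it. The second was Nfkbie, which encodes the inhibitor IκBε, with 28 counts in KO and 55 in WT at 0 min and a log2 ratio of -1.13 (-1.84 to -0.45). Nfkbia, the gene of IκBα and a textbook RelA target, was not called, with 178 counts in KO and 204 in WT (log2 -0.35, interval -0.65 to -0.06), although it reached -3.69 at 15 min.

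Of 10 measured chemokines 4 were called lower in KO at both times and none higher, against 2.19% of all measured genes lower at both times, and the median at 0 min was -0.10. In both lists 40% of the members had an interval below 1, against 15.7% of all measured genes. Ccl2, which attracts monocytes, had 25, 24, 40 and 23 counts in KO, against 95, 619, 1767 and 2051 in WT, a log2 ratio of -2.08 (-2.78 to -1.43) before TNF. Every KO library lay below every WT library for this gene. Its neighbour on chromosome 11, Ccl7, had 66, 71, 69 and 50 counts in KO and 129, 638, 994 and 1027 in WT, which is 2.18-fold lower in KO at 0 min. Cxcl16, which encodes a membrane-bound chemokine, had 8 counts in KO and 51 in WT (-2.83, interval -4.12 to -1.74). Ccl9 had 1 count in KO and 33 in WT, a ratio of -5.20 with a wide interval of -10.55 to -2.62. The last value rests on a single KO count. Cxcl1, a neutrophil chemokine and strong TNF target, was not among them, with 67 counts in KO and 49 in WT (0.30, interval -0.26 to 0.86). Of 19 genes for innate sensing and TNF receptors 1 was called lower and 1 higher, a share near that of all measured genes (3.79% lower and 2.47% higher). The higher one was Tnfrsf19, with 23 counts in KO and 6 in WT at 0 min. The lower one was Tlr2, the receptor for bacterial lipoproteins, with 16, 2, 9 and 8 counts in KO and 47, 111, 286 and 272 in WT.

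Interferon-stimulated genes were lower in KO before TNF almost throughout. Of 34 measured, 22 were called lower and none higher, against 3.79% lower over all measured genes. Of the 22, 15 were called at both times, 3 were weaker at 15 min and 4 were seen at 0 min alone. All 34 had a ratio below 1 and 33 an interval below 1, whereas of all measured genes 47.7% were below 1 and 15.7% had such an interval. The list's median log2 ratio was -1.34 at 0 min and -1.05 at 15 min. Summed over the list, KO had 302, 324, 239 and 278 CPM, against 646, 648, 902 and 867 CPM in WT, and no KO library reached the lowest WT library.

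Oas2, an antiviral enzyme that makes oligoadenylate in the presence of double-stranded RNA, had 15, 11, 9 and 15 counts in KO and 147, 104, 80 and 65 in WT, a log2 ratio of -3.45 (-4.32 to -2.68) before TNF. Isg15, a ubiquitin-like modifier, had 29, 28, 15 and 20 counts in KO and 134, 79, 84 and 83 in WT (-2.36, interval -3.0 to -1.78). The KO libraries lay below all WT libraries for both genes. Oasl2 had 140 counts in KO and 570 in WT (-2.18, interval -2.46 to -1.91). Parp14, an ADP-ribosyltransferase, had 123 counts in KO and 483 in WT (-2.13, interval -2.43 to -1.84). Ifih1, which encodes the RNA sensor MDA5, had 120 counts in KO and 353 in WT (-1.71, interval -2.02 to -1.41). The intervals of these 3 genes lay wholly beyond 2-fold. Irf1, which is both an interferon and an NF-κB target, had 176 counts in KO and 224 in WT (-0.50, interval -0.80 to -0.21) and was not called.

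The class I antigen presentation genes moved in the same direction. Of 15 measured, 7 were called lower in KO and none higher, 6 of them at both times. Over all measured genes 3.79% were called lower and 2.19% lower at both times. The list's median was -0.99 at 0 min and -0.46 at 15 min. B2m, the light chain of class I molecules, had 207, 118, 196 and 123 counts in KO and 532, 356, 526 and 607 in WT, a log2 ratio of -1.52 (-1.76 to -1.28) before TNF. Nlrc5, the transactivator of the class I genes, had 54, 55, 52 and 77 counts in KO and 255, 236, 229 and 165 in WT (-2.40, interval -2.85 to -1.97). For both genes the KO libraries lay below all WT libraries. The heavy chain genes H2-Q4, H2-D1 and H2-K1 had log2 ratios of -3.12, -2.23 and -2.05, but they are near-identical to other class I genes, between which the counting may have split their reads, so these values are uncertain. Tap1, the peptide transporter subunit, had 229 counts in KO and 278 in WT (-0.44) and was not called.

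**Figure D2:**
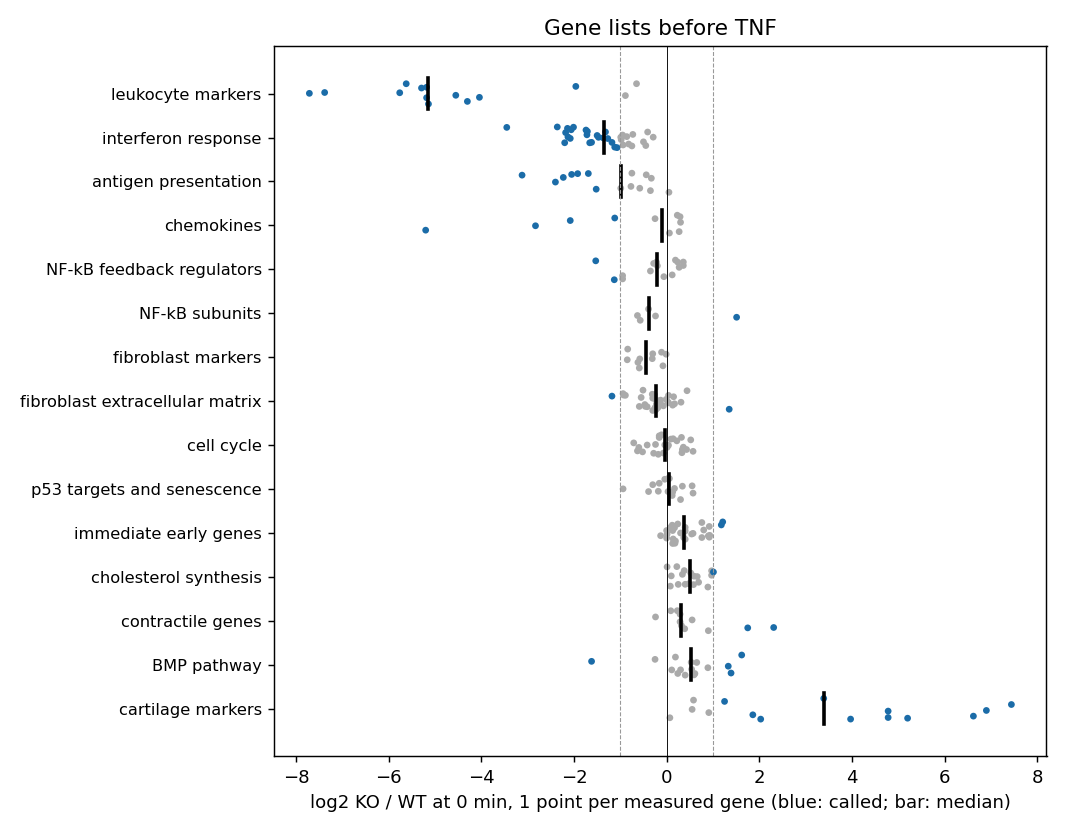
Each point is 1 measured gene of a list, placed by its log2 KO over WT ratio at 0 min; blue points are called, bars are list medians and dashed lines mark 2-fold. Leukocyte markers (median -5.16), interferon response genes (-1.34) and antigen presentation genes (-0.99) lie to the left, cartilage markers (3.39) to the right, and cell cycle and p53 genes around 0.

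The promoter of B2m is shown because it was the only one of the genes lower at both times with a κB motif in its window, and 3 interferon genes are shown beside it for the interferon motif, chosen after their values were seen. The windows run from 250 bases before to 50 after the start given by RefSeq (GRCm38.p6). They lie at chr2:122147437-122147736 on the plus strand for B2m and, on the minus strand, at chr4:156200769-156201068 for Isg15, at chr8:71537423-71537722 for Bst2 and at chr2:62646206-62646505 for Ifih1. Each reads from 5′ to 3′ on the strand of its gene, and capitals mark matches to the κB motif (GGGA, any base, TTTCC) or to the interferon-stimulated response element (ISRE) motif (GAAA, any 2 bases, GAAA), both searched on both strands, where overlapping matches merge into 1 run.
B2m: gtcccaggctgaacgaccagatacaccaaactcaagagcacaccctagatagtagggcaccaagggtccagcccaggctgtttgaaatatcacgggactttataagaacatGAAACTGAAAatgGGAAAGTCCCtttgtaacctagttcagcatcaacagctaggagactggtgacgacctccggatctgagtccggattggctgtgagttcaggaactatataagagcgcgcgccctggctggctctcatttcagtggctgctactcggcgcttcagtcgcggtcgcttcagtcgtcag
Isg15: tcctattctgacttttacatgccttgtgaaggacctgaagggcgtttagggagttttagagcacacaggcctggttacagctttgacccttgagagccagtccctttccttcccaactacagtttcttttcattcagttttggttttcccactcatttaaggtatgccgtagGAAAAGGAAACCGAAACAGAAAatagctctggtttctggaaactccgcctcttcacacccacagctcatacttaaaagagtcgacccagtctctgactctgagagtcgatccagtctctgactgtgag
Bst2: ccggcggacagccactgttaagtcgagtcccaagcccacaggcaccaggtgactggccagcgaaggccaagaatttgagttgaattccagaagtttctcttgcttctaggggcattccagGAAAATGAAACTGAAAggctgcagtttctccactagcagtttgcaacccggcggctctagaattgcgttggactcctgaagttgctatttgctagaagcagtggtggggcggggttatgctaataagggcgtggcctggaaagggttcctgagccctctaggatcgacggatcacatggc
Ifih1: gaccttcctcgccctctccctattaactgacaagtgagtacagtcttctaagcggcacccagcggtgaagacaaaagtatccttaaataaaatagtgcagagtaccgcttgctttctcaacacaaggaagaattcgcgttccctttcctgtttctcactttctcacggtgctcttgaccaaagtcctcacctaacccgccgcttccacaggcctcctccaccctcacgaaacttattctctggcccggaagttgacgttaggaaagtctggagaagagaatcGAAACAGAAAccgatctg

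In the B2m window the ISRE match began 139 bases before the start and the κB match 126 before it. Bst2, which encodes the antiviral membrane protein tetherin, had 39, 33, 28 and 31 counts in KO and 154, 102, 138 and 120 in WT, and its window held 2 overlapping ISRE matches. Isg15 held 3 overlapping matches from 78 bases before the start. In Ifih1 the single match lay 33 bases after the start. The ISRE motif occurred in 3.44% of all 32851 promoter windows and in 3.63% of the 9232 windows of measured genes. Among the genes lower in KO at both times with a window it occurred in 25 of 194 (12.9%), among those lower at 0 min alone in 5 of 83 (6.02%), among those higher at both times in 1 of 61 (1.64%) and among those higher at 0 min alone in 1 of 122 (0.82%). Of the 15 interferon genes lower at 0 min that had a window, 10 held it (66.7%). This was near the share of all measured interferon genes with a window, 14 of 24 (58.3%), whether called or not. Of 8 leukocyte markers lower at 0 min with a window none held it, nor did any of the 10 measured ones with a window. The κB motif occurred in 0.411% of all windows and in 1 of the 194 windows of genes lower at both times (0.515%). These are matches of letters within a short window and no test was made of them.

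The genes with the lowest ratios of all were markers of leukocytes. Of 14 measured leukocyte markers 12 were called lower in KO, all 12 at both times, against 2.19% of all measured genes lower at both times. However, 7 of the measured markers had 3 or fewer counts in every KO library, among them Ptprc, Mrc1 and Adgre1. Such markers met the count limit at 0 min in the WT library only, which favours a call of lower in KO. The contrast with all measured genes is therefore partly built in by the count limit. The list's median log2 ratio was -5.16 at 0 min and -4.51 at 15 min. Cd68 and Fcer1g were not called, and Cd68 had 93 counts in KO and 131 in WT. Ptprc, the pan-leukocyte surface phosphatase CD45, had 1, 2, 0 and 1 counts in KO and 188, 168, 156 and 144 in WT, a log2 ratio of -7.71 (-13.02 to -5.22) at 0 min. Mrc1, the macrophage mannose receptor, had 2, 1, 3 and 2 counts in KO and 298, 216, 286 and 165 in WT (-7.38, interval -10.43 to -5.51). Adgre1, which encodes the macrophage antigen F4/80, had 0, 0, 0 and 2 counts in KO and 132, 112, 72 and 88 in WT, which is at least 49.0-fold lower in KO at 0 min. No KO library came near a WT library for these 3 genes.

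Csf1r, the receptor that macrophages need for survival, had 13, 8, 3 and 4 counts in KO and 230, 222, 248 and 159 in WT. Lyz2, lysozyme of myeloid cells, had 7, 3, 0 and 0 counts in KO and 228, 182, 115 and 147 in WT. The complement gene C1qa had 3, 0, 0 and 0 counts in KO and 95, 46, 74 and 66 in WT. For all 3 the KO and WT counts were far apart. Beyond the list, Dock2 and Vav1, activators of Rac GTPases in blood cells, had 0 counts in KO at 0 min, against 214 and 69 in WT. The scavenger receptor gene Stab1 was measurable in both genotypes, with 28, 25, 19 and 9 counts in KO and 740, 715, 708 and 514 in WT, a log2 ratio of -4.88 (-5.48 to -4.34). Across all measured genes, 64 had 3 or fewer counts in all 4 KO libraries, of which 50 were genes lower at both times, and 33 had 3 or fewer in all 4 WT libraries.

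The 15 leukocyte markers summed to 9.56, 9.35, 7.46 and 8.63 CPM in KO and 117, 102, 99.1 and 82.6 CPM in WT, so they were lower in KO at every time, as the interferon list was. The antigen presentation genes summed to 274, 270, 260 and 186 CPM in KO and 387, 282, 451 and 537 CPM in WT, with close sums at 15 min. The largest counts at 15 min were those of Calr, 1405 in KO and 1142 in WT, and Pdia3, 817 in KO and 748 in WT. Their log2 ratios were 0.59 and 0.42, so the closeness of the sums does not hold for the other members. At 15 min 6 of the 15 measured members were called lower in KO and none higher. Of the leukocyte markers, Ptprc and Adgre1 were at or near 0 in KO. Fewer cells of a type and less RNA per cell cannot be told apart in such libraries. The part of leukocyte RNA in the lower interferon, antigen presentation, chemokine and Tlr2 counts of KO was not tested.

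**Figure D3:**
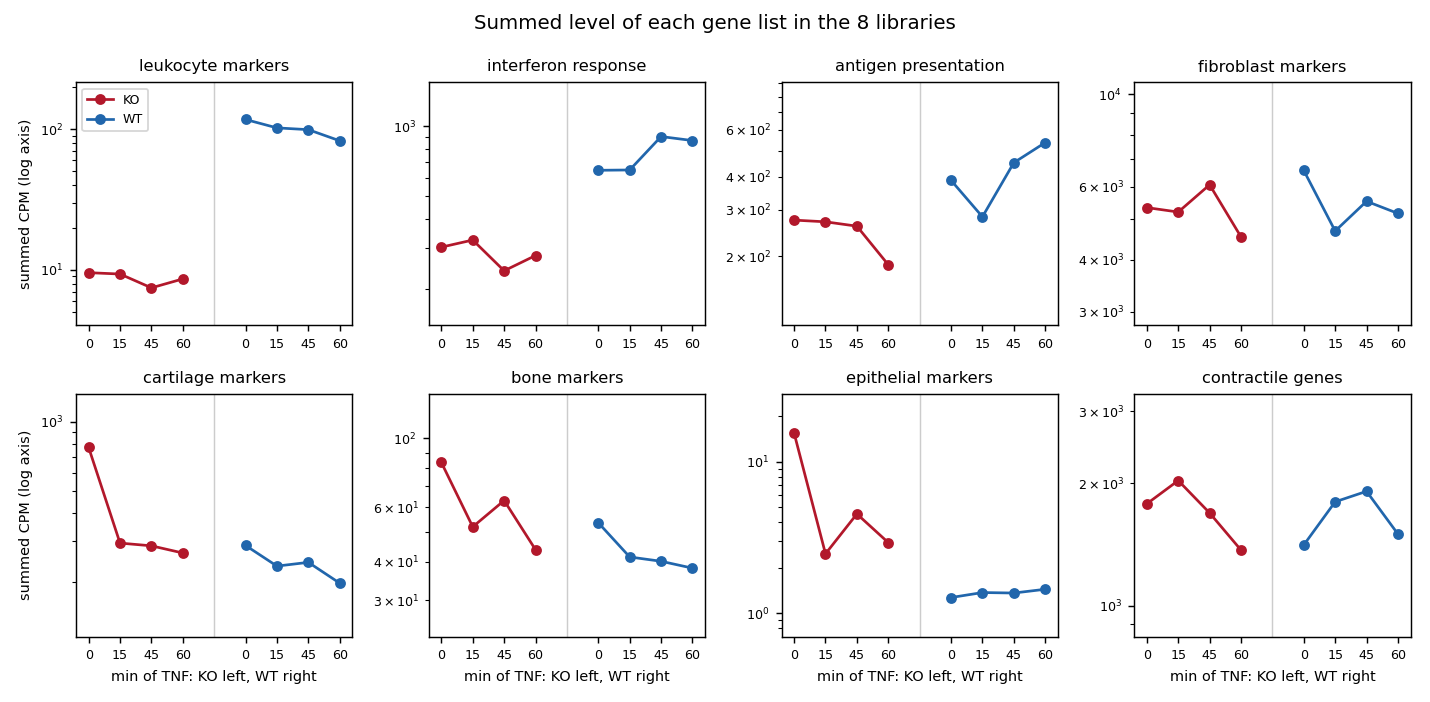
Summed CPM of 8 gene lists (log axis) in the 4 KO libraries (red) and the 4 WT libraries (blue) by minutes of TNF. Leukocyte markers sit between 7.46 and 9.56 CPM in KO and between 82.6 and 117 CPM in WT at all times, while cartilage and epithelial markers stand out in the KO 0 min library alone.

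Among the genes higher in KO at both times, several encode regulators of position along the body axis and the limb. Of 31 measured Hox genes 3 were called higher and 3 lower, all 6 at both times, against 0.686% and 2.19% of all measured genes. The higher ones, Hoxa13, Hoxd12 and Hoxd13, belong to the 5′ ends of their clusters, which mark distal limb and posterior trunk, and the lower ones, Hoxc4, Hoxd3 and Hoxd4, to the 3′ ends. Hoxd13 had 249, 171, 216 and 227 counts in KO and 88, 49, 93 and 120 in WT, a log2 ratio of 1.34 (0.99 to 1.71), and each KO library lay above every WT library. Hoxd3 had 11, 6, 5 and 10 counts in KO and 54, 52, 34 and 31 in WT (-2.45, interval -3.54 to -1.5), the opposite order with no overlap. Hoxd4 had 66 counts in KO and 157 in WT (-1.41, interval -1.84 to -0.98). In the annotation Hoxd4 lies within Hoxd3, so their reads may be shared and the 2 values are not independent.

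Within the Hoxd cluster the ratio followed the order of the genes except at the 5′ end, where Hoxd13 lay below Hoxd12. It ran from Hoxd3 at -2.45 through Hoxd4 at -1.41, Hoxd8 at -0.38, Hoxd9 at 0.29, Hoxd10 at 0.50 and Hoxd11 at 0.82 to Hoxd12 at 1.69 and Hoxd13 at 1.34. The intervals of neighbours such as Hoxd9 and Hoxd10 overlapped. Over the 4 clusters, 7 of 9 measured genes of paralogue groups 10 to 13 were above 0, with a median of 0.54, and 4 of 22 of groups 1 to 9, with a median of -0.42. The Hoxb and Hoxc clusters had no gene of groups 1 to 9 above 0.

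**Figure D4:**
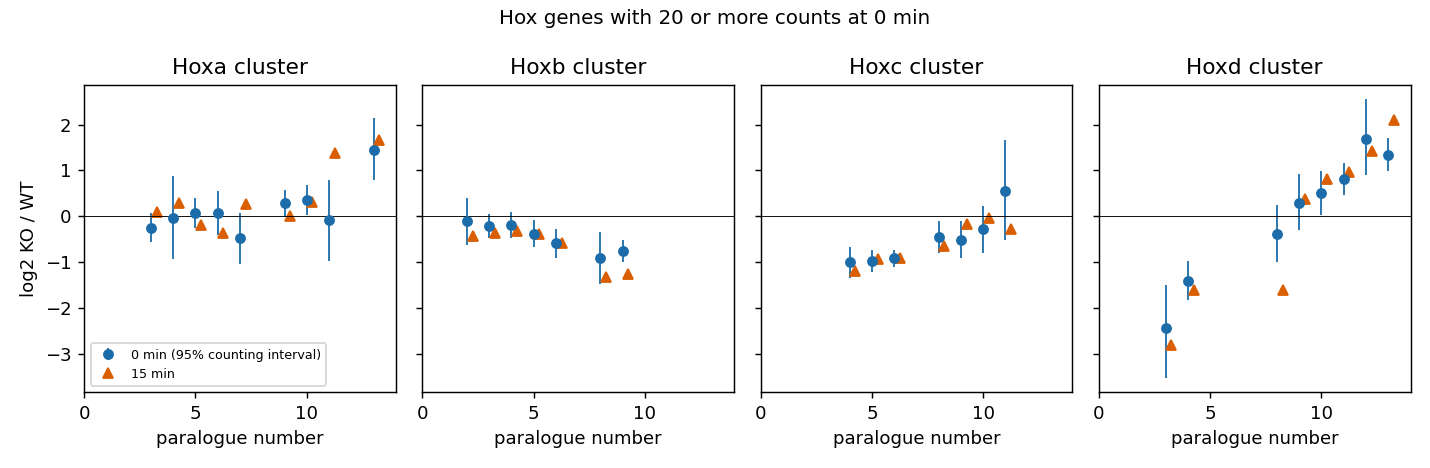
Log2 KO over WT ratio of each measured Hox gene by paralogue number in the 4 clusters, at 0 min (circles with 95% counting intervals) and 15 min (triangles). In the Hoxd cluster the 0 min ratio climbs from -2.45 for Hoxd3 to 1.69 for Hoxd12 and 1.34 for Hoxd13, and the 15 min values lie close to most of them.

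Other transcription factors of body position also went both ways, with 6 of 31 measured higher in KO and 3 lower, against 2.47% and 3.79% of all measured genes. Scaled by total counts alone, 4 were higher and 4 lower. Tbx4, which specifies the hindlimb, had 163, 95, 70 and 111 counts in KO and 49, 26, 21 and 36 in WT (1.58, interval 1.11 to 2.07). Pitx1, which acts upstream of Tbx4 in the hindlimb, had 79, 48, 72 and 71 counts in KO and 25, 13, 23 and 34 in WT (1.5, interval 0.84 to 2.21). For both genes all 4 KO libraries were above the highest WT library. Tbx2, a repressor expressed in limb and heart, had 188 counts in KO and 71 in WT (1.25, interval 0.85 to 1.66). Osr2, a transcription factor of palate and joint, was lower at 0 min alone, with 62, 60, 24 and 39 counts in KO and 131, 61, 15 and 24 in WT, which overlap.

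Single genes of smooth muscle and of the retinoic acid pathway were also higher in KO at both times. Of 11 contractile genes 2 were called higher and none lower, against 2.47% and 3.79% of all measured genes. Actg2, smooth muscle γ-actin, had 210, 124, 132 and 56 counts in KO and 38, 53, 30 and 31 in WT, a log2 ratio of 2.31 (1.81 to 2.85). Myh11, smooth muscle myosin, had 169, 151, 194 and 164 counts in KO and 45, 42, 119 and 90 in WT (1.75, interval 1.27 to 2.26). All KO libraries were above all WT libraries for both. Acta2, the commonest smooth muscle actin of activated fibroblasts, had 3291 counts in KO and 2368 in WT (0.32) and was not called. Des, the muscle intermediate filament desmin, had 86, 70, 64 and 64 counts in KO and 22, 9, 11 and 12 in WT, 3.51-fold higher in KO at 0 min.

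Rarb, a retinoic acid receptor that retinoic acid itself induces, had 82, 70, 50 and 60 counts in KO and 14, 10, 7 and 5 in WT, a log2 ratio of 2.39 (1.57 to 3.33). Of 10 retinoic acid pathway genes measured, 3 were called higher and 1 lower in KO, against 2.47% and 3.79% of all measured genes. Dhrs3, which reduces retinal to retinol, had 285 counts in KO and 109 in WT and was weaker at 15 min. Aldh1a1, which makes retinoic acid, had 36 counts in KO and 8 in WT at 0 min alone, and the binding protein gene Crabp1 had 203 in KO and 404 in WT. Adamts3, a procollagen protease, had 145, 111, 111 and 96 counts in KO and 27, 26, 20 and 17 in WT (2.27, interval 1.67 to 2.92), so Rarb and Adamts3 each had no overlap between the genotypes at any time. Angpt1, the ligand of the endothelial receptor Tie2, had 92 counts in KO and 40 in WT (1.05), and the receptor's gene Tek had 72 in KO and 29 in WT (1.16). Neither Angpt1 nor Tek remained called with scaling by total counts.

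Of 16 BMP pathway genes measured, 3 were called higher and 1 lower in KO, against 2.47% and 3.79% of all measured genes, with a median of 0.54. The BMP decoy receptor gene Bambi had 98 counts in KO and 35 in WT (1.33, interval 0.76 to 1.93), and the ligand gene Gdf6 35 in KO and 12 in WT (1.39). In the Notch list of 10, 1 gene was called higher and 2 lower. The receptor gene Notch4 was higher at 0 min alone, with 23 counts in KO and 8 in WT, and the target genes Hey1 and Hey2 were lower, with 16 and 10 counts in KO and 41 and 30 in WT.

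In several lists most members lay above 0 with few calls, while 52.3% of all measured genes lay above 0. No test of a list was made. Of the lists above, 10 of 11 contractile, 14 of 16 BMP and 8 of 10 retinoic acid genes were above 0. Scaled by total counts, these were 9, 13 and 7. Of 31 immediate early genes, which serum and stress switch on within minutes, 30 were above 0 and 2 were called higher, with a median of 0.37. Scaled by total counts, 19 of 31 and 29.7% of all measured genes were above 0 and 1 gene of the list was called. The called genes were Ccn2, a secreted matrix protein, with 2212 counts in KO and 879 in WT (1.18, interval 1.06 to 1.29), and Egr3 with 165 in KO and 64 in WT (1.21, interval 0.79 to 1.65). Fos had 300 counts in KO and 218 in WT (0.30), and Egr1 had 1360 in KO and 1118 in WT (0.13). All 18 measured cholesterol synthesis genes were above 0, with a median of 0.50, and 1 was called, Insig1, the sterol sensor's partner, with 439 counts in KO and 196 in WT (1.01). The 2 members set aside on X were below 0: Nsdhl with 84 counts in KO and 77 in WT (-0.03) and Ebp with 31 in KO and 35 in WT (-0.33). With scaling by total counts 15 of 18 were above 0 and none was called.

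The 10 fibroblast markers were all below 0, with a median of -0.44 and no call. Scaled by total counts, their median was -0.62 and 2 were called lower. Col1a1 had 40805 counts in KO and 45090 in WT (-0.30). Pdgfra, the receptor used to define fibroblasts, had 1366 counts in KO and 1848 in WT (-0.59). Of 33 matrix genes 1 was called higher and 1 lower (4 lower with scaling by total counts). As reported, these shares were near those of all measured genes (2.47% higher and 3.79% lower). The lower one, Postn, encodes periostin and had 7298, 4714, 6231 and 6339 counts in KO and 14834, 11219, 11861 and 11041 in WT (-1.18, interval -1.22 to -1.14). Among 15 matrix proteases and their inhibitors, 2 were called higher and none lower, and none was called with scaling by total counts. Mmp13, a collagenase, was called with 56 counts in KO and 25 in WT (1.01). No gene was called in either direction among 25 cell cycle genes (median -0.04), 16 p53 and senescence genes (median 0.05), 11 Nrf2 targets (median 0.06) and 9 survival genes (median 0.06). Scaled by total counts, the medians of the last 3 lists were below 0, as was that of all measured genes, and 1 p53 gene was called lower.

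Genes of cartilage, bone and epithelium had high counts in the KO 0 min library and far fewer in the other 7, and most of those named here fell in the class of 0 min alone. Of 15 measured cartilage markers 11 were called higher in KO at 0 min and none lower, against 2.47% higher over all measured genes. Some of them, such as Acan and Col9a1, reached 20 counts at 0 min in the KO library only, which favours such a call. Of the 11, 3 were called at both times, 3 were weaker at 15 min and 5 were seen at 0 min alone. The list's median was 3.39 at 0 min and 0.76 at 15 min. Col2a1, the collagen of cartilage, had 5219 counts in the KO 0 min library, then 91, 114 and 389 at the later KO times, against 27, 14, 15 and 17 in WT. Its log2 ratio was 7.44 (6.90 to 8.04) at 0 min and 3.0 at 15 min. Acan, the proteoglycan aggrecan, had 664, 10, 18 and 61 counts in KO and 5, 3, 6 and 5 in WT (6.90, interval 5.67 to 8.52). The KO libraries were above the WT libraries at all times for both genes, but the 0 min library was far above its own genotype. Col9a1, a minor cartilage collagen, had 328, 6, 4 and 19 counts in KO and 0, 0, 1 and 0 in WT, which is at least 98.1-fold higher at 0 min. Sox9, the transcription factor of cartilage cells, had 178, 97, 157 and 152 counts in KO and 109, 76, 82 and 130 in WT (0.55) and was not called.

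Of 5 measured bone markers 3 were called higher in KO, all at 0 min alone, against 1.5% of all measured genes higher at 0 min alone. Ibsp, bone sialoprotein, had 338 counts in the KO 0 min library and 0 in each of the other 7, which is at least 101-fold higher than WT. Alpl, the tissue-nonspecific alkaline phosphatase, had 128, 0, 2 and 1 counts in KO and 0 in every WT library. Sp7, the osteoblast transcription factor osterix, had 56, 2, 0 and 0 counts in KO and 0 in every WT library. Runx2, which acts earlier in the same lineage, had 308 counts in KO and 348 in WT (-0.33) and was not called.

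The genes named next were chosen by rank and not from a list. Scgb3a2, a secretoglobin of airway epithelium, had 131 counts in the KO 0 min library and 0 in the other 7. Sftpc and Sftpb, which encode surfactant proteins C and B, had 71 and 51 counts in that library, at most 1 in any later KO library and 0 in every WT library. Cyp2f2, a cytochrome P450 of club cells, had 92 counts in KO at 0 min and 1 in WT. Tg, the thyroid hormone precursor thyroglobulin, was singled out after its values were seen, with 331, 17, 20 and 27 counts in KO and 27, 27, 39 and 44 in WT. Of 12 epithelial markers 3 were measured, and all 3 were called higher at 0 min alone, against 1.5% of all measured genes. All 3 reached 20 counts at 0 min in the KO library only, so the count limit itself favoured such a call. Krt19 had 113, 23, 46 and 25 counts in KO and 11, 16, 14 and 4 in WT. Cdh1 (E-cadherin) had 33 in KO and 1 in WT at 0 min, and Krt18 had 35 in KO and 3 in WT.

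**Figure D5:**
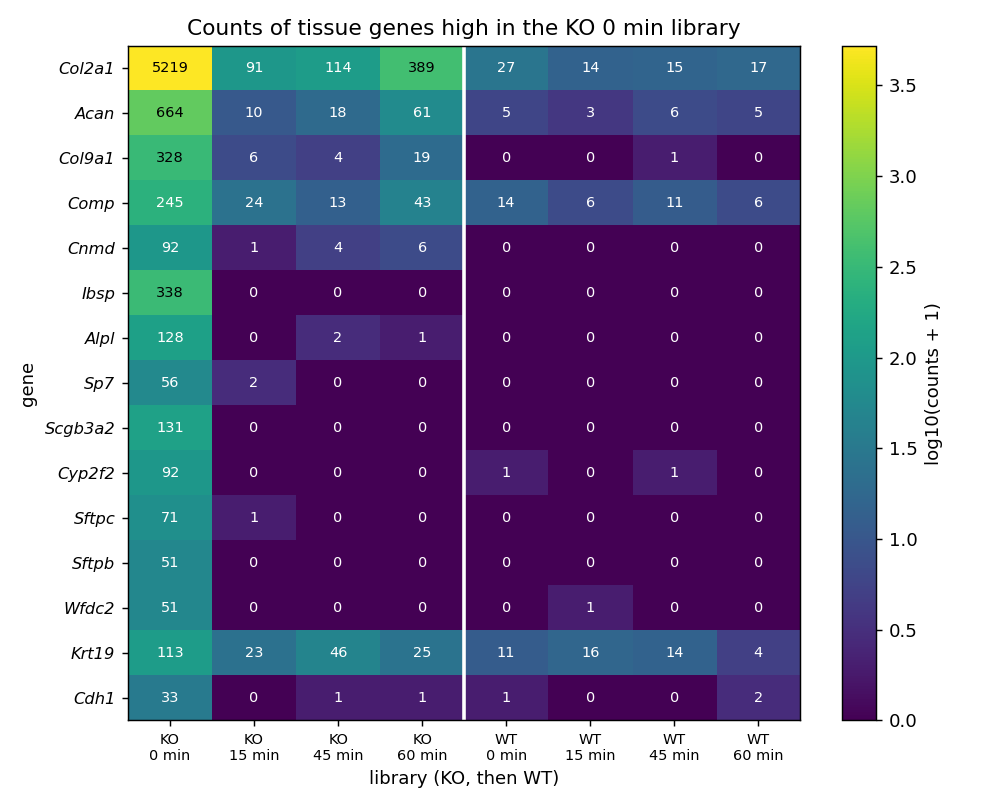
Counts of 15 genes (rows) in the 4 KO and then the 4 WT libraries, coloured by log10 of the count plus 1. The KO 0 min library holds the highest count of every gene shown, and for Ibsp and Scgb3a2 the other 7 libraries hold 0.

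Summed over whole lists, cartilage markers had 773, 295, 287 and 267 CPM in KO and 288, 234, 243 and 197 CPM in WT. The 12 epithelial markers had 15.5, 2.47, 4.53 and 2.93 CPM in KO and 1.27, 1.37, 1.36 and 1.44 CPM in WT, and bone markers had 83.6, 51.8, 63 and 43.7 CPM in KO and 53.4, 41.4, 40.1 and 38.1 CPM in WT. Of the 195 genes higher at 0 min alone, the KO 0 min library departed from the KO 15 min library in 84 and the WT 0 min library from the WT 15 min library in 16, where departing means at least 2-fold with an interval excluding 1. In 35 the ratio turned below 1 at 15 min, and in 25 the 0 and 15 min intervals did not overlap. The genes were chosen by a higher KO 0 min count and a difference not kept at 15 min, which favours departures of the KO 0 min library. A departure also needs 20 counts in the higher library, which the lower WT counts reach less often. Of the 146 genes lower at 0 min alone, the KO 0 min library departed in 11 and the WT 0 min library in 21. With the KO 15 min library in place of the KO 0 min one, a choice made after seeing the data, 299 genes were higher and 594 lower than in WT at 0 min, and 126 of the 299 and 363 of the 594 had been called with the 0 min library. That library has been exposed to TNF. The part of cells of other tissues in the KO 0 min library was not tested.

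The 146 genes lower at 0 min alone held few large differences, with a median size of 1.27 on the log2 scale. The largest by rank were thin: Selplg, a selectin ligand of blood cells, had 0, 4, 1 and 6 counts in KO and 23, 12, 11 and 14 in WT, at least 8.54-fold lower at 0 min, and Il33, an alarmin of barrier and stromal cells, had 4, 6, 1 and 5 in KO and 23, 18, 9 and 18 in WT. Both were lower in every KO library than in any WT library, so that their place in this class rests on the wide 15 min interval. Better measured was Ctsk, the collagen-degrading cathepsin K, with 117, 110, 113 and 91 in KO and 258, 170, 176 and 138 in WT (-1.30 at 0 min, -0.33 at 15 min). The Ctsk counts did not overlap between the genotypes, yet the WT 0 min library was the highest of all. In 33 of the 146 the ratio turned above 1 at 15 min.

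The libraries at 45 and 60 min were not used by the rule that called the genes and divided them by time. The same genotype difference was tested there with edgeR's quasi-likelihood test, taking the 2 times of a genotype as its replicates. These libraries follow TNF, so the test is of the genotype difference at those times and not before TNF, and its spread holds the change between 45 and 60 min. Of 14343 genes tested, 585 were higher in KO (4.08%) and 1165 lower (8.12%) at a Benjamini-Hochberg adjusted p under 0.05. Of genes lower at 0 and 15 min, 234 of 279 tested were lower here and none higher, and of genes higher at both times 57 of 89 were higher and 1 lower. Of genes seen at 0 min alone, 25 of 130 of the lower ones were lower and 1 higher, and 17 of 132 of the higher ones were higher and 7 lower. The last counts were 5 and 5 of 116 when KO at 45 min was left out and 7 and 4 of 132 with DESeq2, and 10 of 109 of the lower ones were lower when WT at 60 min was left out. When the WT 45 min library was left out, 319 genes of all tested were higher and 717 lower, and of the genes lower at both times 107 of 163 tested passed. When WT at 60 min was left out, the counts were 336 and 684, and 123 of 163 passed.

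By this test Stab1 was lower in KO, with a log2 difference of -5.33 ± 0.29 (SE, edgeR adjusted p = 3.53e-07), and so was Isg15 at -2.15 ± 0.28 (edgeR adjusted p = 0.000341). The lists were chosen with earlier results of these data known, so their counts here are description only. Of the lists, 29 of 33 interferon genes, 12 of 15 antigen presentation genes and 12 of 14 leukocyte markers were lower. Rarb was higher by 3.27 ± 0.38 (edgeR adjusted p = 0.000152), Adamts3 by 2.58 ± 0.27 (edgeR adjusted p = 7.56e-05) and Hoxd13 by 1.15 ± 0.19 (edgeR adjusted p = 0.00153). Of the cholesterol synthesis genes, 13 of 18 were higher and none lower. Of 11 cartilage markers tested 3 were higher, among them Col2a1 at 4.05 ± 0.52 (edgeR adjusted p = 0.000311). Rel, higher in KO before TNF, had a difference of -0.06 ± 0.19 (edgeR adjusted p = 0.882). Mmp13 and Col15a1, both higher in KO at 0 min, were lower here, at -1.47 ± 0.40 (edgeR adjusted p = 0.0307) and -1.36 ± 0.34 (edgeR adjusted p = 0.0195).

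The called genes were also set against the positions of the targeted genes. Within 10 Mb of Rela on chromosome 19 (5637483 to 5648130, mm10), 5 of 213 measured genes were higher in KO and 9 lower, which is 6.57% called (4.12% within 5 Mb and 3.57% within 2 Mb), and among the lower ones were the myeloid genes Ms4a7 and Mpeg1. Within 10 Mb of Rel on chromosome 11 (23736847 to 23770970), 2 of 75 were higher and 4 lower, or 8% (8.57% within 5 Mb and 7.69% within 2 Mb). Over all measured genes these shares were 2.47% higher and 3.79% lower. The 9 mitochondrial genes measured had a median log2 ratio of -0.58 at 0 min and 0.41 at 15 min. The library kit keeps strand, but how the counting treated strand is not known here, so values of overlapping and antisense genes are uncertain.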

How the data were processed

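Reads were trimmed, aligned to mm10 and counted with cutadapt 1.12, STAR and featureCounts 1.5.0, and DESeq2 was run, per the submitters' processing notes. The deposited table holds raw counts per gene for 8 libraries, with no normalization by the authors, and counts of KO and WT libraries at 0, 15, 45 and 60 min were used as deposited. No per-sample column was left unused. Scaling was by TMM (edgeR 4.0.16, R 4.3.3) over the 8 libraries, on genes with 10 or more counts in at least 2, and gave KO 1.11 times the scaled size of WT at 0 min. Ratios with exact Clopper-Pearson intervals came from scipy 1.17.1, figures from matplotlib 3.10.9. The 45 and 60 min libraries were tested with edgeR's quasi-likelihood test (Benjamini-Hochberg, threshold 0.05), with DESeq2 1.42.0 as an alternative. The scripts were tested on simulated data. The intervals and the floor of 3 counts cover counting error only, and p-values measure the spread between libraries that may share a culture. Named genes were the 10 first of each of 4 classes by the interval bound nearest to 1, without predicted models and small RNAs, the targeted and subunit genes, and up to 4 called genes of each of 36 lists; other genes of the lists are named for their known roles. The members and lists were chosen with earlier results of these data known. Promoter windows came from RefSeq tables (GRCm38.p6), matched by symbol for 9232 of 12972 symbols. Values of some genes that this rule names are not reported here.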

Additional observations from a re-analysis of the deposited data

Results flagged for a closer look

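Snora2b, a small nucleolar RNA gene, was called in opposite directions at the 2 times. It had 25 counts in KO and 7 in WT at 0 min, a log2 ratio of 1.68, and 7 in KO and 21 in WT at 15 min, a ratio of -1.29. The difference between the times was not tested.

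Among the genes on X and Y that were set aside, 3 stood out. Xist had 16, 17, 29 and 19 counts in KO and 19258, 21085, 21886 and 17896 in WT, a log2 ratio of -10.39 at 0 min. The Y-linked genes Uty and Kdm5d were higher in KO at 0 min, with log2 ratios of 1.25 and 1.18. They were counted in WT too, where Uty had 364, 337, 305 and 280 counts and Kdm5d 375, 356, 283 and 299. The WT libraries thus held both Xist and Y-linked RNA. Of the genes set aside, 5 of 7 on Y were called higher in KO, and 6 of 406 on X were higher and 16 lower.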

How the results depend on the processing

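At 0 min, where 321 genes were higher in KO and 492 lower, a minimum of 50 counts gave 157 and 270, a 1.5-fold limit 718 and 948, and a 3-fold limit 135 and 242. Called at both times (89 and 284 as reported) were 45 and 168 with 50 counts, 256 and 494 at 1.5-fold, 19 and 154 at 3-fold, 262 and 459 when the same sign at 15 min was enough, and 53 higher with scaling by total counts. At 0 min alone (195 and 146) were 63 and 38 with 50 counts, 396 and 383 at 1.5-fold, 94 and 31 at 3-fold, 59 and 33 when the same sign at 15 min took a gene out (turned or without direction there), and 249 lower with 10 counts. At 45 and 60 min (585 and 1165), DESeq2 gave 357 higher and 898 lower, total counts 211 and 1215, no filter on low counts 299 and 820, time as a block 1437 and 1943, and the 15, 45 and 60 min libraries with that block 952 and 1440. Leaving out 1 library gave 319 to 558 higher and 684 to 1133 lower; the lone library left was assumed to vary like the other genotype's pair. With the WT 15 min library in place of WT at 0 min, chosen after the data were seen, 437 were higher and 468 lower, of which 199 and 303 were also called with the 0 min library. Scaling by total counts moved the median log2 ratio to -0.16 at 0 min and lowered the share of calls that were higher in KO to 25.2%, against 39.5% as reported. For the 106 named genes, other scalings left 313 values at 0 min on the same side of the call and moved 5, and at 45 and 60 min 734 kept their side of the threshold, 51 lost and 41 gained it. No named value reversed. At 0 min alone, scaling by total counts gave 155 higher and 215 lower, so more genes were then lower than higher, the reverse of the reported 195 and 146. Total counts also turned the sign of some list medians near 0: p53 genes had -0.13 (as reported 0.05), survival genes -0.12 (as reported 0.06), Nrf2 targets -0.12 (as reported 0.06) and matrix proteases -0.02 (as reported 0.16). The cause of these differences was not tested, apart from the stricter or looser limits, which admit fewer or more genes by construction. Depth limits the split by time, since 119 of the 195 and 54 of the 146 genes of 0 min alone had under 20 counts in both 15 min libraries. The block pairs KO with WT by time. The labels carry no replicate numbers.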
